A study of Homo sapiens with 24 samples.

Results

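The genes described here are 10 that epithelial cells use for their keratin cytoskeleton and their cell-cell junctions: KRT8, KRT18, KRT19, EPCAM, CDH1, CLDN3, CLDN4, CLDN6, CLDN7 and ESRP1. They are 10 of the 58721 genes counted, and were picked by name because KRT8 and other epithelial genes were higher in knockout cells given either of the ZFX constructs than in cells given the empty vector. Their values in that contrast therefore chose them and are given below as a description, from which nothing is read; the difference between the constructs, and everything measured in the other cell line, was not used to choose them. RNA was sequenced from 24 libraries in 8 groups of 3 replicates. The study asked how ZFX, an X-linked transcription factor with zinc fingers, changes gene expression. In 293T cells, an established line from human embryonic kidney, all 9 libraries carried knockouts of ZFX and of its paralog ZNF711 (DKO cells), and they received the construct labelled ZFX12_13 (a FLAG-tagged ZFX whose name the labels do not explain), FLAG-tagged wild-type ZFX (wtZFX), or the empty vector pCMV6-Entry (pCMV6). In LN-229, an established glioblastoma line with the wild-type genotype, 15 libraries came from cells given siRNAs against ZFX and ZNF593 together (the double knockdown), against ZFX (siZFX), against ZNF593, another zinc finger protein (siZNF593), or a control siRNA in a pair of sets (siControl_2 and siControl). Both control sets have the same treatment label, and the names of the deposited data tie siControl_2 to the double knockdown. The series calls the replicates biological but does not say that they were separate cultures, so the spread behind the p-values may be technical. Whether the DKO cells are 1 clone is not given in the sources used here, and transfected and untransfected cells were sequenced together. In such bulk samples, fewer cells of a type and less RNA per cell cannot be told apart.

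Keratins are the intermediate filaments of epithelia and assemble as pairs of a type II and a type I chain. KRT8, a type II chain, pairs with KRT18 or KRT19, type I chains, in simple epithelia, and an unpaired keratin is degraded. CDH1 encodes E-cadherin, the calcium-dependent adhesion receptor of adherens junctions. Claudins are the membrane proteins that seal tight junctions, and EPCAM is an epithelial surface glycoprotein that binds and stabilises some of them. ESRP1 is an RNA-binding protein that sets epithelial splice patterns. The ZEB and SNAI repressors bind E-box sequences in promoters such as that of CDH1 and turn this group of genes down when cells take on a mesenchymal state.

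In GENCODE 29 on GRCh38, KRT8 (ENSG00000170421.12, chromosome 12, 52897187 to 52949954, minus strand) and KRT18 (ENSG00000111057.10, chromosome 12, 52948871 to 52952901, plus strand) lie head to head, and their exons overlap by 135 bases on opposite strands. KRT19 (ENSG00000171345.13) lies on chromosome 17 at 41523617 to 41528308, EPCAM (ENSG00000119888.10) on chromosome 2 at 47345158 to 47387601, and CDH1 (ENSG00000039068.18) on chromosome 16 at 68737225 to 68835548. CLDN3 (ENSG00000165215.6, 73768997 to 73770270) and CLDN4 (ENSG00000189143.9, 73799542 to 73832693) are neighbours on chromosome 7. CLDN6 (ENSG00000184697.6) lies on chromosome 16 at 3014712 to 3020071 and CLDN7 (ENSG00000181885.18) on chromosome 17 at 7259903 to 7263983. Exons of CDH1 also overlap AC099314.1 by 212 bases, those of CLDN6 overlap TNFRSF12A by 40 bases, and those of CLDN7 overlap AC003688.1 by 269 bases and ELP5 by 38 bases. Reads in such overlaps are counted for neither gene in the column used, so the levels of these genes are understated.

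RefSeq promoter windows (GRCh38.p14) were found for 5 of the 10 genes, KRT8, CLDN3, CLDN4, CLDN6 and CLDN7, in 6 windows. The first 250 bases before the start are shown, 5′ to 3′ on the gene's strand, for KRT8, which was higher with ZFX12_13 than with wtZFX, CLDN6, which differed the other way, and CLDN7, whose log2 change against the empty vector was negative with both constructs although its groups overlapped. Capitals mark CACCTG or its reverse complement CAGGTG, the E-box letters bound by ZEB and SNAI repressors; these letters were chosen after the sequences had been seen.
KRT8 promoter (chr12:52926470-52926719, minus strand): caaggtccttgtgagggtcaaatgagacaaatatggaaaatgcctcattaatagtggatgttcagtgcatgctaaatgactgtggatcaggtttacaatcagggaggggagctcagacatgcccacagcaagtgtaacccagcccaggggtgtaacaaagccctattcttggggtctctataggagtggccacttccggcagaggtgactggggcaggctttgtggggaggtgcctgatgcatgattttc
CLDN6 promoter (chr16:3018184-3018433, minus strand): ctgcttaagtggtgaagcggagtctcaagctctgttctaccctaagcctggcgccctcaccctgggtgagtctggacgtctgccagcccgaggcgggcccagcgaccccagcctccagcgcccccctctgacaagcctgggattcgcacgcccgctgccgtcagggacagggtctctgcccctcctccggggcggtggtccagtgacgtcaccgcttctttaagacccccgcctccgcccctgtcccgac
CLDN7 promoter (chr17:7262479-7262728, minus strand): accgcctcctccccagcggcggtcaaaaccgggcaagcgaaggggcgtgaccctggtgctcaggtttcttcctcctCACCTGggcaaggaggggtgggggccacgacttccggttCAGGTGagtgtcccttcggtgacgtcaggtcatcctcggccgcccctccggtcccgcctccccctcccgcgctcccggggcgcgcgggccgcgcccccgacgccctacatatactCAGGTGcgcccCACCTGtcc
The CLDN7 window held the E-box letters at 4 positions, whose first bases lie at -174, -135, -20 and -9, where -1 is the base before the start. The other 5 windows held none, the other CLDN7 window among them. Of 35116 RefSeq promoter windows of this length, 17.5% held these letters on either strand. The letters AGGCCT, the palindromic core of the motif described for ZFX, were in 9.20% of all windows and in 0 of the 6. The KRT8 window belongs to 1 of 5 annotated starts of the gene, and the CLDN7 window to 1 of 4. These are descriptions of letters, and nothing about binding follows from a match or its absence.

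The libraries held 16223239 to 24272308 reads on genes in DKO cells and 16774179 to 30159260 in LN-229, and 19376 and 17684 genes had enough reads to be tested. In the double knockdown, replicate 3 stood apart from the others (r of 0.993 with replicates 1 and 2, which had 0.998 with each other). ZFX was higher with either construct and lower with its siRNA than in their controls. It stood at 16184 to 22520 CPM (gene counts scaled to a common library total) with ZFX12_13, 14582 to 16909 CPM with wtZFX and 217 to 235 CPM with pCMV6, construct reads included. RNA of both knocked-out genes was thus present in the DKO libraries, with ZNF711 at 246 to 264 CPM with ZFX12_13, 249 to 275 CPM with wtZFX and 301 to 313 CPM with pCMV6. These counts give no check of the knockout labels, since the edited positions are not given in the sources used here. In LN-229 ZFX stood at 24.1 to 28.6 CPM with the double knockdown and 12.7 to 19.7 CPM with siZFX, against 48.7 to 56.0 CPM in siControl_2 and 45.7 to 55.1 CPM in siControl. Summed over both strands, because ZNF593 lies under another gene, its reads were 2.90 to 3.76 CPM with the double knockdown and 1.59 to 2.93 CPM with siZNF593, against 31.3 to 38.4 CPM in the controls. A list of 12 glial and glioma markers summed to 3226 to 5481 CPM in LN-229, with 11 of 12 at 1 CPM or more and OLIG1 below. A list of 12 embryonic kidney markers, which also holds the neurofilament genes NEFL and NEFM, summed to 507 to 578 CPM in 293T. Of these, 11 of 12 stood at 1 CPM or more and PAX8 below. Neither list was silent in the other line. In 293T, 9 of 12 glial and glioma markers reached 1 CPM (sum 98.0 to 158 CPM), and in LN-229, 7 of 12 kidney markers did (sum 39.7 to 90.2 CPM).

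In DKO cells KRT8, the type II keratin, separated all 3 groups. It had 53.0, 48.3 and 47.6 CPM with ZFX12_13, 31.7, 34.9 and 31.1 CPM with wtZFX, and 16.59, 15.04 and 15.01 CPM with pCMV6. No library of any of these groups overlapped another group. As a description of the contrast that chose the genes, KRT8 was 3.19-fold higher with ZFX12_13 than with pCMV6 (log2 change 1.67, SE 0.08) and 2.09-fold higher with wtZFX than with pCMV6 (log2 change 1.06, SE 0.08). The constructs themselves differed: KRT8 averaged 49.6 ± 2.93 CPM with ZFX12_13 and 32.6 ± 2.08 CPM with wtZFX (SD, n = 3 each), a rise of 1.53-fold (log2 change 0.61, 95% interval 0.47 to 0.75, adjusted p = 6.2e-07 in edgeR's quasi-likelihood test with Benjamini-Hochberg adjustment). ZFX itself did not pass the same test between the constructs (log2 change 0.28, SE 0.11, adjusted p = 0.123), which does not show equal levels. It averaged 18863 ± 3279 CPM with ZFX12_13 and 15509 ± 1234 CPM with wtZFX (SD, n = 3 each). The part of the ZFX level in the KRT8 difference was not tested.

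KRT18, the partner chain, behaved differently between the constructs. It had 37.5, 33.3 and 33.7 CPM with ZFX12_13, 34.3, 31.7 and 33.7 CPM with wtZFX, and 23.2, 25.1 and 24.1 CPM with pCMV6. Both construct groups lay above pCMV6, and they overlapped each other. The log2 change against pCMV6 was 0.53 with ZFX12_13 and 0.46 with wtZFX, and the difference between the constructs did not pass the test (log2 change 0.07, 95% interval -0.07 to 0.20, adjusted p = 0.565, edgeR). KRT19, the other partner of KRT8, was nearly silent, with at most 0.124 CPM in any DKO library. As RPKM, which also corrects for exon length (for the 10 genes, without the bases that other genes' exons share), KRT8 stood at 11.2 with ZFX12_13, 7.32 with wtZFX and 3.50 with pCMV6, while KRT18 stood at 18.6, 17.7 and 12.9 in the same order. KRT18 was the higher of the pair in all 3 groups on the scale per length. This scale divides by the exon bases of all annotated transcripts together, 4446 for KRT8 and 1874 for KRT18. In CPM the order with ZFX12_13 was the reverse, 49.6 for KRT8 and 34.9 for KRT18. Which transcripts were present was not measured, so the order in DKO cells depends on the length used.

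**Figure D1:**
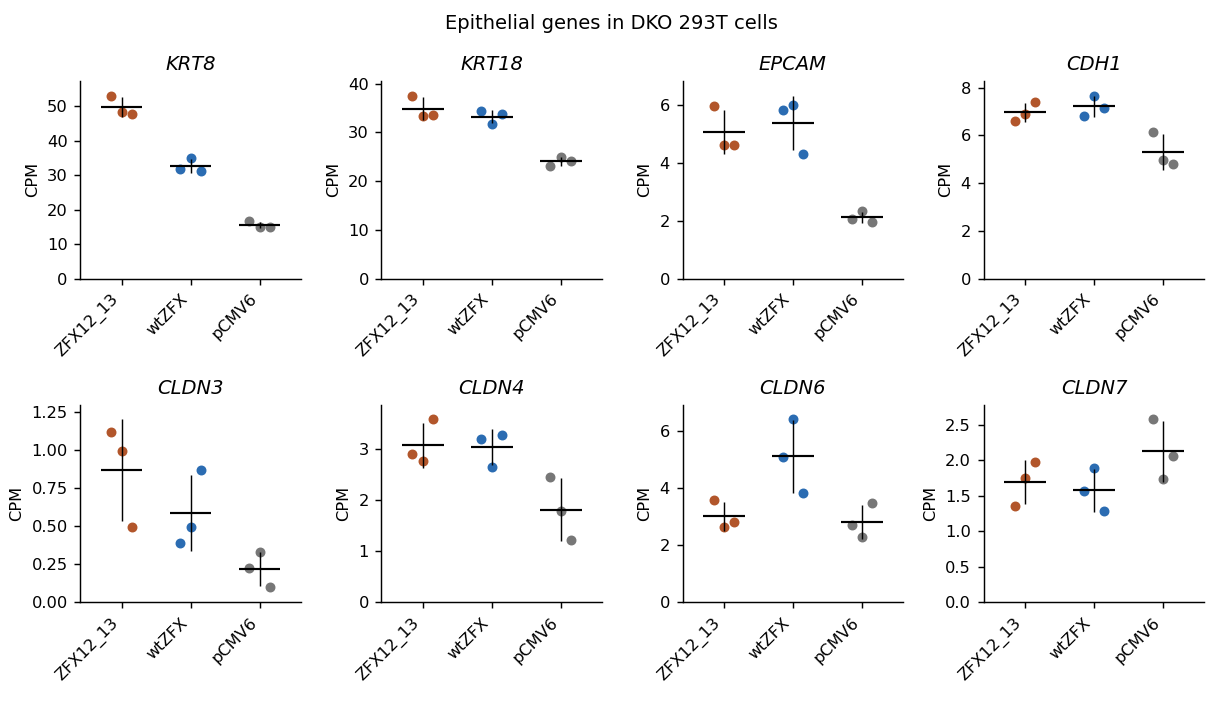
Level in CPM (vertical axes, each from 0) of the members in DKO cells with ZFX12_13, wtZFX and pCMV6; points are single libraries and bars the mean ± SD of 3. KRT8 steps up over the 3 groups without overlap (47.6 to 53.0, 31.1 to 34.9 and 15.01 to 16.59 CPM), KRT18 is alike in range with both constructs, and CLDN6 is highest with wtZFX.

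Part of the reads of this keratin pair is hidden from both genes. Reads over the shared 135 bases are assigned to neither gene in the unstranded column, but the strand columns show how many there are: the number came out the same from KRT8 and from KRT18 in 23 of 24 libraries and differed by 1 read in the other. They made up 26.2% to 41.6% of the reads at the locus, and their origin from KRT8 or KRT18 cannot be told apart because the libraries keep no strand. Shared reads stood at 32.8 ± 1.51 CPM with ZFX12_13, 32.4 ± 1.70 CPM with wtZFX and 23.2 ± 0.197 CPM with pCMV6 (SD, n = 3 each), so that, like KRT18 and unlike KRT8, they overlapped between the constructs. Taken as 1 locus, the pair had 123, 113 and 116 CPM with ZFX12_13, 97.1, 101 and 96.7 CPM with wtZFX, and 63.1, 63.3 and 62.1 CPM with pCMV6. The locus was higher with ZFX12_13 than with wtZFX (log2 change 0.26, SE 0.05, adjusted p = 0.000545, edgeR), and with all shared reads given to KRT8 its difference between the constructs shrank to a log2 change of 0.34. The locus total was added after the data had been seen.

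**Figure D2:**
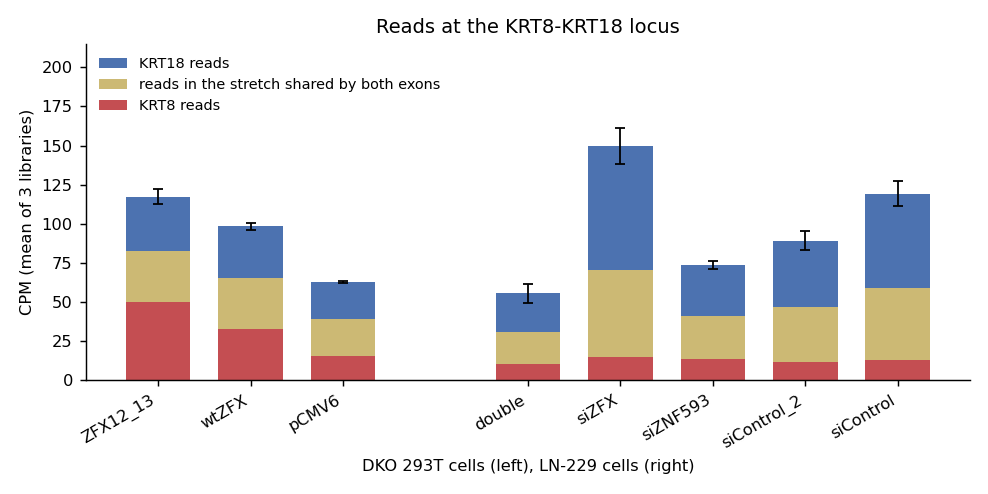
Mean CPM of the reads at the KRT8-KRT18 locus in each group, stacked as reads of KRT8 alone, reads over the exon overlap and reads of KRT18 alone. In DKO cells the KRT8 part differs most between groups, and in LN-229 the KRT18 part and the shared reads do.

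Processed copies of these keratins are numerous, and reads can be split between copies. The annotation lists 50 KRT8 pseudogenes and 68 KRT18 pseudogenes. KRT8 pseudogenes together had 16.9 ± 0.905 CPM with ZFX12_13, 15.6 ± 0.671 CPM with wtZFX and 19.1 ± 0.721 CPM with pCMV6 (SD, n = 3 each). They were highest with pCMV6, where KRT8 was lowest. KRT18 pseudogenes had 5.43 ± 0.540, 6.45 ± 0.571 and 5.94 ± 0.971 CPM in the same order. The part of reads misassigned between the genes and these copies was not tested.

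Among the surface and adhesion genes, EPCAM had 5.95, 4.62 and 4.62 CPM with ZFX12_13, 5.83, 6.02 and 4.30 CPM with wtZFX, and 2.08, 2.34 and 1.96 CPM with pCMV6. The constructs overlapped each other, and all 6 of their libraries lay above pCMV6. The log2 change against pCMV6 was 1.25 with ZFX12_13 and 1.33 with wtZFX, and between the constructs it was -0.08 (95% interval -0.39 to 0.24, adjusted p = 0.795, edgeR). CDH1, the E-cadherin gene, had 6.60, 6.90 and 7.39 CPM with ZFX12_13, 6.81, 7.66 and 7.16 CPM with wtZFX, and 6.15, 4.96 and 4.79 CPM with pCMV6. Again no construct library fell into the range of pCMV6. Its log2 change against pCMV6 was 0.39 with ZFX12_13 and 0.44 with wtZFX, and it was -0.05 between the constructs (95% interval -0.30 to 0.20, adjusted p = 0.837, edgeR).

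The claudins, the sealing proteins of tight junctions, did not move as a block. CLDN6, a claudin of early embryonic epithelia, had 3.60, 2.63 and 2.83 CPM with ZFX12_13, 5.10, 6.42 and 3.85 CPM with wtZFX, and 2.71, 2.30 and 3.48 CPM with pCMV6. Its ZFX12_13 and pCMV6 libraries overlapped, and its wtZFX libraries lay above both. The log2 change against pCMV6 was 0.10 with ZFX12_13 and 0.85 with wtZFX. CLDN6 was lower with ZFX12_13 than with wtZFX (log2 change -0.75, 95% interval -1.14 to -0.36, adjusted p = 0.00837, edgeR), the reverse of KRT8. This call rests on replicate 2 of either group: without wtZFX replicate 2 the log2 change was -0.56 (adjusted p = 0.0718), and without ZFX12_13 replicate 2 it was -0.66 (adjusted p = 0.052).

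CLDN3 and CLDN4, neighbours on chromosome 7, were both higher with the constructs. CLDN3 had 1.12, 0.994 and 0.492 CPM with ZFX12_13, 0.392, 0.498 and 0.869 CPM with wtZFX, and 0.226, 0.328 and 0.101 CPM with pCMV6, so that all construct libraries lay above pCMV6 at a low level. Its log2 change against pCMV6 was 1.95 with ZFX12_13 and 1.41 with wtZFX, from 44 reads with ZFX12_13, 39 with wtZFX and 14 with pCMV6. CLDN3 could pass the filter on low counts only through construct libraries, where it was high, so nothing is read from these changes. CLDN4 had 2.89, 2.75 and 3.57 CPM with ZFX12_13, 3.18, 2.64 and 3.27 CPM with wtZFX, and 2.44, 1.78 and 1.21 CPM with pCMV6, and the log2 change against pCMV6 was 0.74 with ZFX12_13 and 0.73 with wtZFX. Neither passed the test between the constructs (CLDN3 log2 change 0.54, 95% interval -0.27 to 1.35; CLDN4 log2 change 0.01, 95% interval -0.39 to 0.42). CLDN7 had log2 changes of negative sign. It had 1.36, 1.75 and 1.97 CPM with ZFX12_13, 1.57, 1.89 and 1.28 CPM with wtZFX, and 2.58, 1.73 and 2.07 CPM with pCMV6. The 3 groups overlapped, and the log2 change against pCMV6 was -0.33 with ZFX12_13 and -0.44 with wtZFX.

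Of the 10 genes, 8 passed the filter on low counts in DKO cells, and KRT19 and ESRP1 did not. CLDN3 passed it only through construct libraries, where it was high. Higher calls against pCMV6 numbered 6 of the 8 with ZFX12_13, where 20.9% of all 19376 tested genes were called higher and 15.7% lower, and 7 of the 8 with wtZFX, where the shares were 23.2% and 19.2%. These counts follow from how the genes were chosen, and nothing is read from them. Between the constructs, 1 of the 8 was higher with ZFX12_13 (KRT8; 9.73% of all genes) and 1 was lower (CLDN6; 10.6% of all genes), a share near that of all genes. The median log2 change between the constructs was 0.04 over the 8 genes and 0.01 over all tested genes. Both comparisons with pCMV6 share their control libraries, so the values with each construct are set side by side only.

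**Figure D3:**
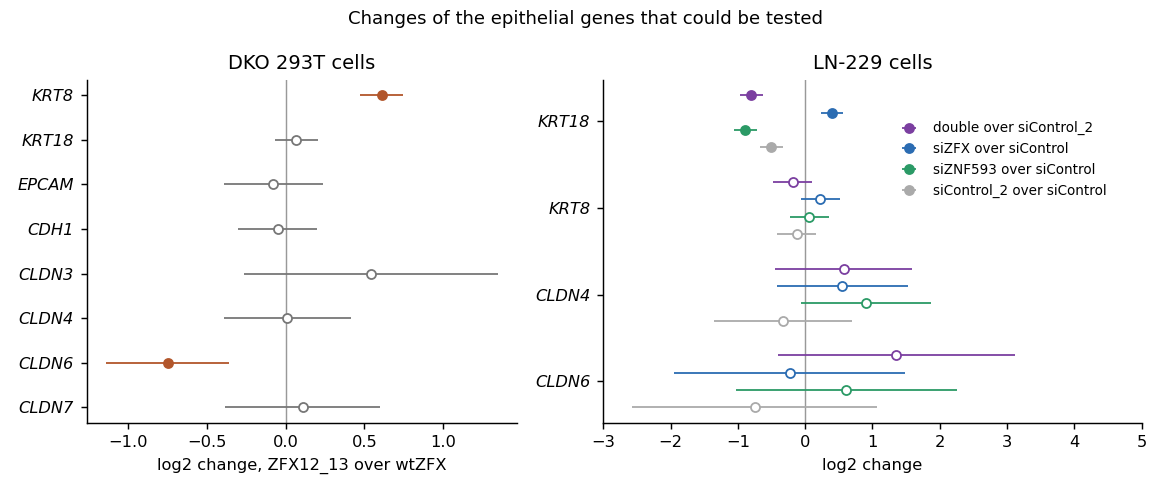
Log2 change of each tested member (horizontal axes) with its 95% interval, for ZFX12_13 over wtZFX in DKO cells and for 4 comparisons in LN-229; filled points are past the adjusted p of 0.05 and open points are not. KRT8 is higher and CLDN6 lower with ZFX12_13 than with wtZFX (0.61 and -0.75), and in LN-229 KRT18 alone passes the test.

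Other genes of the same structures were read from lists written from general knowledge of their function. The lists were made with earlier results of these data known, and both comparisons with pCMV6 share their control libraries. Their counts against pCMV6 are therefore a description, and no independent support is read from them. The desmosome list, the spot-like junctions that anchor keratin filaments, had 9 tested genes. Of these, 6 rose and 0 fell with ZFX12_13 against pCMV6 (median log2 change 0.28), and 7 rose and 0 fell with wtZFX against pCMV6 (median 0.23), where the medians of all genes were -0.01 and -0.02 and the shares of all genes called higher are the 20.9% and 23.2% given above. At an unadjusted p under 0.05 in edgeR, 0 fell with ZFX12_13 and 1 fell with wtZFX, and DESeq2 also called 0 and 1 lower. With wtZFX, upper-quartile factors gave 6 higher and 1 lower, and both stranded columns summed gave 7 higher and 1 lower of 10. Between the constructs, 3 rose and 2 fell with ZFX12_13 against wtZFX, where 9.73% of all genes were called higher and 10.6% lower. EVPL, which encodes envoplakin, a linker between desmosomes and keratin filaments, stood at 3.76 ± 0.398 CPM with ZFX12_13, 1.45 ± 0.136 CPM with wtZFX and 0.488 ± 0.0881 CPM with pCMV6 (SD, n = 3 each), with log2 changes against pCMV6 of 2.93 and 1.55. DSP, which encodes desmoplakin, the abundant plaque protein that binds keratins, stood at 361 ± 33.3, 300.2 ± 13.1 and 217 ± 1.16 CPM in the same order. Both also rose with ZFX12_13 against wtZFX (EVPL log2 change 1.38, adjusted p = 2.1e-05; DSP log2 change 0.27, adjusted p = 0.00117; edgeR), as KRT8 did.

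The other junction lists were mixed in direction. The shares of all genes called higher and lower against pCMV6 were 20.9% and 15.7% with ZFX12_13, and 23.2% and 19.2% with wtZFX. Of 25 other tight junction genes, 9 rose and 5 fell with ZFX12_13 against pCMV6, and 6 rose and 6 fell with wtZFX against pCMV6. CGNL1, which encodes paracingulin, an adaptor at tight and adherens junctions, rose with both (log2 changes 2.15 and 1.44) and further with ZFX12_13 than with wtZFX (log2 change 0.71). CRB3, a polarity protein of the apical membrane, had opposite signs: its log2 change against pCMV6 was 0.87 with ZFX12_13 and -0.78 with wtZFX, and it rose by 1.65 with ZFX12_13 against wtZFX. Of 12 other adherens junction genes, 6 rose and 1 fell with ZFX12_13, and 6 rose and 2 fell with wtZFX, both against pCMV6. CDH3, which encodes P-cadherin, a close relative of E-cadherin that sits beside CDH1 on chromosome 16, had log2 changes against pCMV6 of 0.87 with ZFX12_13 and 1.58 with wtZFX, and was lower with ZFX12_13 than with wtZFX (log2 change -0.71, adjusted p = 0.00128, edgeR), like CLDN6. Over the whole family, 10 keratins had enough counts in DKO cells, KRT8 and KRT18 among them, and KRT8 alone passed the test between the constructs (edgeR). The others were looked at after their values had been seen. KRT32, a type I hair keratin, was lower with both constructs, at 2.05 ± 0.980 CPM with ZFX12_13, 2.40 ± 0.487 CPM with wtZFX and 3.72 ± 0.363 CPM with pCMV6 (SD, n = 3 each; log2 changes -0.86 and -0.63, adjusted p = 0.00907 and 0.0331, edgeR). KRT38, another hair keratin, fell with ZFX12_13 (log2 change -0.57, adjusted p = 0.0188, edgeR), and its log2 change with wtZFX was -0.35 (adjusted p = 0.110). KRT86, a type II hair keratin whose near-identical relatives may share its reads, had a log2 change of 1.30 with wtZFX against pCMV6. It had few reads, 22 in the ZFX12_13 group, 54 in the wtZFX group and 21 in the pCMV6 group. No pCMV6 library was above 0.422 CPM. KRT86 could pass the filter on low counts only through construct libraries, so nothing is read from its call. KRT10 stood at 12.6 ± 1.83 CPM with ZFX12_13, 11.8 ± 1.43 CPM with wtZFX and 13.5 ± 2.69 CPM with pCMV6, and the groups overlapped. KRT10, KRT17, KRT35, KRT36 and KRT222 passed in neither comparison with pCMV6.

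Markers of other cell types moved in the same DKO comparisons. Against pCMV6, 20.9% of all genes were called higher and 15.7% lower with ZFX12_13, and 23.2% and 19.2% with wtZFX. Of 11 tested glial and glioma markers, 5 rose and 1 fell with ZFX12_13 and likewise with wtZFX, both against pCMV6 (median log2 changes 0.21 and 0.21), and the whole list of 12 summed to 115 to 128 CPM with ZFX12_13, 153 to 158 CPM with wtZFX and 98.0 to 105 CPM with pCMV6. OLIG1, a transcription factor of oligodendrocyte lineage cells, rose with both (log2 changes 1.33 and 2.10), while SOX10 and S100B stayed below 1 CPM on average. Of 11 tested embryonic kidney markers, 5 rose and 1 fell with ZFX12_13 and 5 rose and 2 fell with wtZFX (medians 0.12 and 0.15), and the whole list of 12 summed to 564 to 578 CPM with ZFX12_13, 542 to 563 CPM with wtZFX and 507 to 529 CPM with pCMV6. PAX2, a transcription factor of the kidney lineage, rose with both (log2 changes 2.05 and 2.58). The part of these markers in the epithelial changes was not tested.

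Regulators were mixed as well. The counts below stand beside shares of all genes called higher and lower of 20.9% and 15.7% with ZFX12_13. With wtZFX these shares were 23.2% and 19.2%, both against pCMV6. Among 14 tested regulators of epithelial state, 5 rose and 3 fell with ZFX12_13 against pCMV6, and 4 rose and 2 fell with wtZFX against pCMV6. OVOL1, a zinc finger repressor of mesenchymal genes, was called higher with both but had few reads, 60 in the ZFX12_13 group, 25 in the wtZFX group and 4 in the pCMV6 group. It could pass the filter on low counts only through the construct libraries, where it was high, so nothing is read from its calls. ESRP2, the paralog of ESRP1, stood at 6.87 ± 0.345 RPKM with ZFX12_13, 7.44 ± 0.267 RPKM with wtZFX and 5.41 ± 0.265 RPKM with pCMV6 (SD, n = 3 each). ESRP1 stood far below its paralog on the same scale, at 0.0409 RPKM with ZFX12_13, 0.0164 with wtZFX and 0.0210 with pCMV6, from 8, 4 and 5 reads in those groups. Among 13 repressors of the epithelial programme and mesenchymal genes, 2 rose and 3 fell with ZFX12_13, and 3 rose and 3 fell with wtZFX, both against pCMV6. SNAI1, a repressor of CDH1, was among those that rose with both (log2 changes 0.79 and 1.19). Of 17 other surface and sorting genes, 5 rose and 2 fell with ZFX12_13 and 8 rose and 1 fell with wtZFX. PRSS8, a membrane-bound serine protease of epithelia, was lower with ZFX12_13 than with wtZFX (log2 change -1.46, adjusted p = 0.0139, edgeR).

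**Figure D4:**
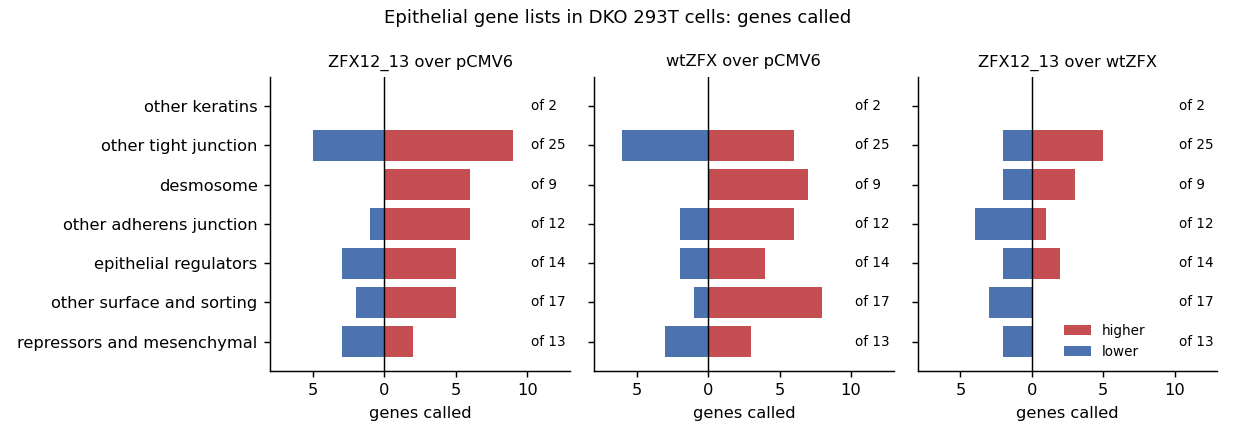
Number of genes called higher and lower at an adjusted p of 0.05 (horizontal axes) in each list of epithelial genes, for the comparisons among DKO cells, with the number tested beside each bar. The lists were made with earlier results of these data known. Of all genes, 20.9% were called higher with ZFX12_13 and 23.2% with wtZFX, both against pCMV6. Desmosome genes have 6 and 7 of 9 higher calls and 0 lower calls against pCMV6 with TMM factors on unstranded counts (DESeq2, upper-quartile factors and summed stranded columns each called 1 lower with wtZFX), and the other lists with calls there hold both directions.

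LN-229 expresses the keratin pair but hardly any junction gene of the set. Of the 10 genes, 4 passed the filter on low counts: KRT8, KRT18, CLDN4 and CLDN6. EPCAM had 1 read in all 15 libraries together, in a siZFX library, and CDH1 had 9, of which 8 were in siControl_2 replicate 1. CLDN3 and CLDN7 stayed at or below 0.359 and 0.258 CPM in any library, and KRT19 at or below 0.255 CPM. On the scale per length, KRT18 stood at 13.1 RPKM with the double knockdown, 42.4 with siZFX, 17.4 with siZNF593, 22.7 in siControl_2 and 32.2 in siControl, and KRT8 at 2.32, 3.36, 2.99, 2.64 and 2.88 RPKM in the same order. KRT18 was therefore the higher of the pair in every group.

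KRT18 was the member that responded in LN-229. It had 23.9, 26.5 and 22.9 CPM with the double knockdown, 77.9, 87.2 and 73.1 CPM with siZFX, 31.5, 32.3 and 34.1 CPM with siZNF593, 44.5, 39.9 and 43.4 CPM in siControl_2, and 62.6, 60.1 and 58.2 CPM in siControl. No group of 3 overlapped any other, and the order from high to low was siZFX, siControl, siControl_2, siZNF593 and the double knockdown. KRT18 rose with siZFX against siControl (79.4 ± 7.19 and 60.3 ± 2.19 CPM, SD, n = 3 each; log2 change 0.40, 95% interval 0.23 to 0.56, adjusted p = 0.000842, edgeR). It fell with siZNF593 against siControl (32.6 ± 1.33 and 60.3 ± 2.19 CPM; log2 change -0.89, 95% interval -1.06 to -0.72, adjusted p = 5.4e-08, edgeR). It also fell with the double knockdown against siControl_2 (24.5 ± 1.87 and 42.6 ± 2.45 CPM; log2 change -0.80, 95% interval -0.97 to -0.63, adjusted p = 2.2e-07, edgeR), and the log2 change was -0.75 without replicate 3 of the double knockdown, the library that lay apart.

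The background of calls differs between these comparisons. KRT18 was the 1 of 4 tested members called higher with siZFX, where 13.8% of 17684 genes were called higher and 17.1% lower. It was also the 1 of 4 called lower with siZNF593 (14.6% of all genes lower, 12.2% higher) and with the double knockdown (20.6% lower, 17.6% higher). With 4 genes tested, 1 call does not stand apart from these shares. The direct comparison of siZFX with siZNF593 gave a log2 change in KRT18 of 1.28 (95% interval 1.11 to 1.45, adjusted p = 5.6e-11, edgeR; 19.8% of all genes called higher and 20.7% lower). The change with the double knockdown minus that with siZFX was -1.20 on the log2 scale (SE 0.12, adjusted p = 2.2e-07; 8.97% of all genes called lower and 8.76% higher). Against the change with siZNF593 it differed by 0.09 (95% interval -0.16 to 0.33, adjusted p = 0.701, where 7.97% of genes were called higher and 8.6% lower).

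The control sets differed in KRT18 by a log2 change larger in size than that of siZFX against its control. KRT18 was lower in siControl_2 than in siControl (42.6 ± 2.45 and 60.3 ± 2.19 CPM; log2 change -0.50, 95% interval -0.67 to -0.33, adjusted p = 0.000286, edgeR; 4.88% of all genes called lower and 5.43% higher). The libraries with the siRNA against ZFX alone still lay above all 6 control libraries (73.1 to 87.2 CPM, against 39.9 to 62.6 CPM), and those with siZNF593 and with the double knockdown below all 6. Set against siControl, the double knockdown gave a log2 change of -1.30, and against all 6 control libraries -1.05. What separates the control sets is not given in the sources used here, and their part in these changes was not tested.

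**Figure D5:**
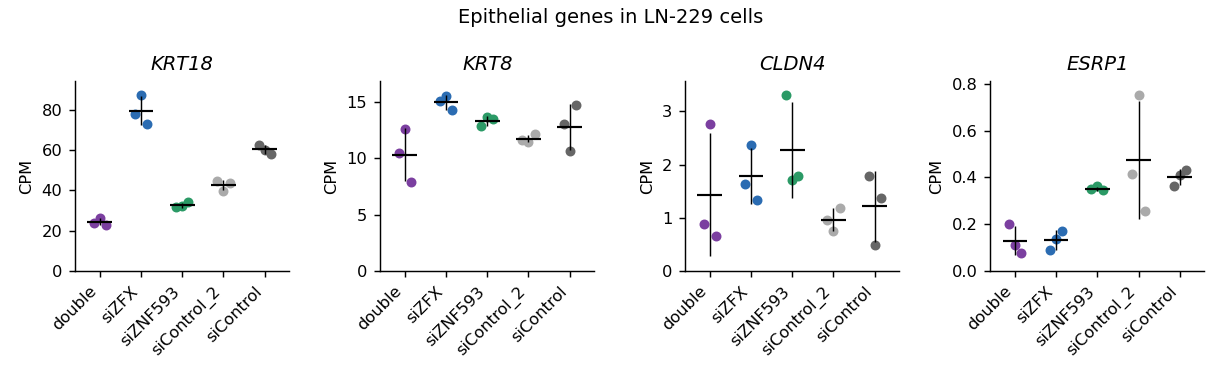
Level in CPM (vertical axes, each from 0) of KRT8, KRT18, CLDN4 and ESRP1 in LN-229 with the double knockdown, siZFX, siZNF593, siControl_2 and siControl; points are single libraries and bars the mean ± SD of 3. The KRT18 groups do not overlap (22.9 to 87.2 CPM over all libraries), while the KRT8 groups lie between 7.87 and 15.5 CPM.

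KRT8 did not pass the test in any of the LN-229 comparisons with the unstranded counts. It had 10.5, 12.6 and 7.87 CPM with the double knockdown, 15.04, 15.54 and 14.25 CPM with siZFX, 12.8, 13.6 and 13.5 CPM with siZNF593, 11.6, 11.5 and 12.1 CPM in siControl_2, and 13.1, 10.6 and 14.7 CPM in siControl. The siZFX and siZNF593 libraries fell into or next to the range of siControl. The log2 change was 0.23 with siZFX (95% interval -0.06 to 0.51), 0.06 with siZNF593 (-0.23 to 0.35) and -0.19 with the double knockdown (-0.48 to 0.11). Giving KRT8 the reads it shares with KRT18 changed this: its log2 change was then 0.27 with siZFX (adjusted p = 0.0370), -0.51 with siZNF593 (adjusted p = 0.000339) and -0.56 with the double knockdown (adjusted p = 8.7e-05, all edgeR). In LN-229 the shared reads numbered 12740, beside 4282 of KRT8 alone. These values are therefore mostly those of the shared reads, whose origin cannot be told apart. Shared reads were 20.6 ± 1.78 CPM with the double knockdown, 55.5 ± 3.74 CPM with siZFX, 27.7 ± 1.97 CPM with siZNF593, 34.9 ± 4.43 CPM in siControl_2 and 46.0 ± 7.18 CPM in siControl, the same order as KRT18. Taken as 1 locus, the pair had log2 changes of 0.33 with siZFX, -0.69 with siZNF593 and -0.69 with the double knockdown, all past the threshold. The direction of KRT18 held on each of these counts, whereas that of KRT8 with siZNF593 depended on which gene the shared reads are given to.

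CLDN4 was low and scattered in LN-229. It had 0.877, 2.76 and 0.666 CPM with the double knockdown, 1.64, 2.36 and 1.34 CPM with siZFX, 3.30, 1.70 and 1.79 CPM with siZNF593, 0.967, 0.752 and 1.17 CPM in siControl_2, and 1.79, 0.481 and 1.38 CPM in siControl. The groups overlapped, and the log2 changes of 0.57, 0.55 and 0.91 for the 3 knockdowns had 95% intervals of -0.44 to 1.59, -0.42 to 1.53 and -0.06 to 1.88. CLDN6 had group means of 0.167 to 0.432 CPM, and a change of it was not detectable at this depth. ESRP1 (ENSG00000104413.16, chromosome 8, 94641074 to 94707466) was under the filter but was detected in every library. It had 5, 3 and 2 reads with the double knockdown, 2, 3 and 4 with siZFX, 7, 7 and 6 with siZNF593, 9, 15 and 5 in siControl_2, and 10, 12 and 10 in siControl. Every siZFX library had fewer than any siControl library, at 0.0885 to 0.173 CPM against 0.365 to 0.431 CPM. Tested with no filter on low counts, its log2 change was -1.56 with siZFX (adjusted p = 0.380) and -1.83 with the double knockdown (adjusted p = 0.203, edgeR), so the difference did not pass.

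Other keratins also changed in LN-229. Of 7 other keratins tested, 3 rose and 1 fell with siZFX against siControl (median log2 change 0.60), 0 rose and 3 fell with siZNF593 against siControl (median -1.06), 0 rose and 1 fell with the double knockdown against siControl_2 (median 0.07), and 0 rose and 4 fell in siControl_2 against siControl (median -0.84). DESeq2 gave the same 4 pairs of counts, and at an unadjusted p under 0.05 edgeR had 0 higher in the last 3. The medians of all genes lay between -0.01 and 0.02 in these comparisons. Of all genes, 13.8% were called higher and 17.1% lower with siZFX, and 12.2% and 14.6% with siZNF593. The shares were 17.6% and 20.6% with the double knockdown, and 5.43% and 4.88% in siControl_2 against siControl. They also apply to the glial and glioma markers below. These 7 come from a list of 11 that leaves out KRT6B, KRT81 and KRT86, so the counts do not cover the family. KRT6B went the other way, with a mean of 3.03 CPM with siZNF593 and 1.59 CPM in siControl. KRT81 (3.61 and 8.23 CPM) and KRT86 (0.60 and 1.24 CPM) were lower with siZNF593. KRT16, which is on the list, averaged 1.29 CPM with siZFX and 0.192 to 0.247 CPM in the other LN-229 groups. Its pass of the filter on low counts may rest on the siZFX libraries, where it was high. Nothing is read from its part in the counts with siZFX. KRT80, a type II keratin, stood at 9.23 ± 0.714 CPM with the double knockdown, 42.2 ± 6.28 CPM with siZFX, 7.42 ± 1.22 CPM with siZNF593, 10.9 ± 1.30 CPM in siControl_2 and 24.01 ± 0.918 CPM in siControl (SD, n = 3 each). Its log2 change was 0.81 with siZFX, -1.69 with siZNF593 and -1.14 between the control sets, all past the threshold. KRT10, a type I keratin of stratified epithelia, had log2 changes of 0.27, -0.56 and -0.44 in the same comparisons. KRT14, the type I chain of basal epithelial cells, fell with siZFX against siControl (log2 change -0.77). Its mean was 4.91 CPM with siZFX, between those of the control sets (8.35 CPM in siControl and 3.60 CPM in siControl_2). Markers of the line's own type moved in the same comparisons. Of 12 glial and glioma markers, 2 rose and 6 fell with the double knockdown (median log2 change -0.23), 1 rose and 9 fell with siZFX (median -0.40), 2 rose and 7 fell with siZNF593 (median -0.58), and 4 rose and 3 fell in siControl_2 against siControl. They summed to 3520 to 3839 CPM with the double knockdown, 3764 to 3781 CPM with siZFX, 3226 to 3397 CPM with siZNF593, 5236 to 5481 CPM in siControl_2 and 4978 to 5105 CPM in siControl. Their part in the keratin changes was not tested.

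Junction genes of LN-229 were called in both directions. CGN, which encodes cingulin, a cytoplasmic adaptor of tight junctions, stood at 21.8 ± 1.87 CPM with the double knockdown, 20.6 ± 1.14 CPM with siZFX and 17.5 ± 1.39 CPM with siZNF593, against 6.34 ± 0.251 CPM in siControl_2 and 7.19 ± 0.952 CPM in siControl. It rose in all 3 comparisons (log2 changes 1.78, 1.52 and 1.29). DSC2, a desmosomal cadherin, rose with the double knockdown and with siZNF593 (log2 changes 1.32 and 0.80). Of 20 other tight junction genes, 3 rose and 3 fell with the double knockdown, 5 rose and 2 fell with siZFX and 5 rose and 2 fell with siZNF593. Of 6 tested desmosome genes, 2 rose and 2 fell with the double knockdown, 2 rose and 0 fell with siZNF593, and 0 passed in either direction with siZFX (1 in each direction at an unadjusted p under 0.05, 0 by DESeq2, and 1 higher with upper-quartile factors). At that unadjusted p, 1 fell with siZNF593, where DESeq2 called 0 lower. Of 10 other adherens junction genes, 5 rose and 2 fell with the double knockdown, 2 rose and 3 fell with siZFX, and 1 rose and 2 fell with siZNF593 (3 and 2 with upper-quartile factors). Of all genes, 17.6% were called higher and 20.6% lower with the double knockdown, 13.8% and 17.1% with siZFX, and 12.2% and 14.6% with siZNF593. The control sets differed too: in siControl_2 against siControl, 0 desmosome genes rose and 2 fell (median log2 change -0.39). There, 1 other tight junction gene rose and 1 fell, where 5.43% of all genes were called higher and 4.88% lower. Outside the junctions, SDC1, the epithelial heparan sulfate proteoglycan syndecan-1, fell with the double knockdown and with siZFX (log2 changes -1.69 and -1.27). SNAI1 fell with siZFX, to 35.3 ± 3.12 CPM against 65.9 ± 0.492 CPM in siControl (log2 change -0.90, adjusted p = 9.0e-06, edgeR), in cells where CDH1 had next to no reads.

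Genes whose levels followed KRT8 were ranked by the lower of its Pearson correlations of log2(CPM + 1) over the 9 DKO libraries and over the 15 LN-229 libraries, among 9947 protein-coding genes with a mean of at least 5 CPM in each line. The 5 most alike were CTTN (0.976 and 0.889), BCAR1 (0.972 and 0.863), MGAT4B (0.919 and 0.858), CCDC9B (0.987 and 0.845) and HDAC7 (0.974 and 0.840), and the same 5 led with a pseudocount of 0.25. CTTN encodes cortactin, an actin-binding protein, BCAR1 the adhesion scaffold p130Cas, MGAT4B a glycosyltransferase and HDAC7 a class IIa histone deacetylase. KRT18 came 185th (0.932 and 0.649). These values describe libraries that fall into groups and share treatments, and KRT8 was chosen for its levels in the DKO libraries.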

How the data were processed

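RNA-seq measured gene expression in 24 libraries of 2 human cell lines. The authors deposited whole-number read counts per gene for each library, in 3 columns (unstranded and 1 for each strand), as the layout of the deposited counts shows. GRCh38 (hg38), STAR, DESeq2 and HTSeq are named in the submitters' processing notes; versions and settings are not given in the sources used here. All 58721 gene IDs matched GENCODE 29, from which symbols, exons and coordinates were taken. Reads fell evenly on both strands (50.1% to 50.7%), so the unstranded counts were used; 9.49% to 11.1% of reads met more than 1 gene there and 4 summary entries per library were left out of totals and tests.

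LN-229 and DKO libraries were fitted separately in edgeR 4.0.16 under R 4.3.3 (quasi-likelihood, robust; TMM factors of 0.952 to 1.05; filterByExpr; 1 coefficient per group), and p-values were adjusted by Benjamini-Hochberg over all tested genes, with calls at 0.05. Biological variation had a coefficient of 5.26% in DKO cells and 11.2% in LN-229. Dividing the size of a log2 change by the root of its F statistic gave its SE, and a 95% interval is 1.96 SE to each side. CPM are over TMM-scaled totals, scaled separately in each line. The cell lines were not compared. The test was checked on simulated counts. Python 3.11.15 with pandas 2.3.3 and matplotlib 3.10.9 read the counts and drew the figures, and motif letters were searched on both strands.

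The members and lists were chosen with earlier results of these data known. The genes named are the members, the targeted factors, up to 4 genes per list and comparison with the largest absolute change among those called, of which part are described, and the 5 genes most like KRT8; other keratins in DKO cells and ESRP2 levels are given beside them, chosen after their values were seen. Alternatives were DESeq2 1.42.0, upper-quartile or RLE factors, a filter of 1 CPM in 3 libraries or none, a fit to the contrast's groups alone, a replicate block, both stranded columns summed, other control sets and leaving out each library; the locus total was added later. Pairs of opposite-strand genes that overlap cannot be separated in the counts.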

Additional observations from a re-analysis of the deposited data

How the results depend on the processing

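Of the counts of members called, 301 settings gave the same count and 8 did not; of the values of single members, 724 kept their direction and side of the threshold or stayed within 1 SD, 14 moved by more, 26 reversed, 6 passed the threshold only under the alternative and 2 lost it. Summing the stranded columns, which gives the shared reads to both KRT8 and KRT18, called 2 members in place of 1 with siZFX, siZNF593 and the double knockdown, in siControl_2 against siControl, in siZFX against siZNF593, and for the double change minus the siZFX change; the added member was KRT8 each time, and its log2 change with siZNF593 reversed to -0.51. Under the same setting CLDN6 with siZFX was 0.0972, CLDN4 between the constructs -0.0031, and CLDN4 in the double change minus the siZFX change -8.9e-05. Without a filter CLDN4 between the constructs was -0.0085. The count of members lower with ZFX12_13 than with wtZFX ran from 0 to 1 when single libraries were left out, since CLDN6 lost its call without replicate 2 of either group. With single libraries left out, the log2 change ran from -0.67 to 0.35 for CLDN6 with siZFX, from -0.070 to 0.17 for KRT8 with siZNF593, and between the constructs from -0.23 to 0.0028 for EPCAM, -0.11 to 0.085 for CLDN4 and -0.033 to 0.25 for CLDN7. For CLDN4 in LN-229 it ran from -0.30 to 0.92 with the double knockdown, -0.60 to 0.026 in siZFX against siZNF593, -0.72 to 0.071 in siControl_2 against siControl, -0.85 to 0.43 in the double change minus the siZFX change and -1.20 to 0.083 in the double change minus the siZNF593 change. The cause of these reversals was not tested. KRT8 between the constructs kept its call in all 14 alternatives (log2 change 0.34 to 0.66), and KRT18 kept its call in all alternatives with siZFX (0.32 to 0.45), siZNF593 (-0.94 to -0.81) and the double knockdown (-1.30 to -0.73). Replicate numbers did not pair the samples: no pair of groups had all 3 correlations of same-numbered deviations over 0.1. A replicate block moved counts of called genes by factors of 0.993 to 1.02 and changed no call of a member; CLDN4 in the double change minus the siZFX change became -0.0077. Members at under 1 CPM are limited by depth.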
